A study of Mus musculus with 8 samples.

Results

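The mitosis and spindle genes are 44 genes whose products drive a cell through mitosis, from the kinases and cyclins that start it to the motors, checkpoint proteins and ubiquitin enzymes that end it. They were chosen by gene symbol from a table of 20793 rows with 20462 distinct symbols. All 44 symbols were in the table, each in 1 row, and all 44 passed the filter on low values. RNA was sequenced in 8 libraries of neural progenitor cells from mouse brain (strain FvB/C57BL/6), 4 of them in a proliferating and 4 in a differentiating state. Proliferating cells grew in N2 medium with EGF and bFGF at 20 ng/ml, and differentiating cells were kept for 5 days in neurobasal medium with B27 supplement. The labels name 3 targets: non-targeted (NT), FUBP1 and CIC. The NT libraries are called TRC and GFP in the proliferating state and 7 and GFP-D in the differentiating state. The other libraries, 1 for each target and state, are called FUBP1, CIC, FUBP1-D and CIC-D. The labels' protocols describe lentiviral hairpins and puromycin selection for 3 days, and name FUBP1 hairpins only. No label says that the NT libraries came from separate cultures, so p-values cover only library-to-library spread, part of which may be technical.

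Mitosis begins when CDK1 bound to a B-type cyclin becomes active, and it ends when the anaphase-promoting complex (APC/C), a ubiquitin ligase, marks cyclin B and securin for destruction. Between these steps chromosomes condense, kinetochores assemble on centromeres and attach to spindle microtubules, and a checkpoint holds anaphase back until every chromosome is attached. Transcripts of many of these genes peak in the G2 and M phases, under the DREAM and MMB complexes and FOXM1, which act through the cell cycle genes homology region (CHR), and under NF-Y, which binds the CCAAT box. Neural progenitors express them while they divide, and their neuronal and glial progeny lose them on leaving the cell cycle.

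Promoters of the members shared 2 short letter patterns. A promoter of 300 bases (250 before to 50 after the gene's start, RefSeq, GRCm38.p6) was at hand for 35 of the 44 members. The CHR letters TTTGAA or TTCGAA, on either strand, stood in 27 of the 35 (77.1%), in 19.4% of the 27025 promoters at hand and in 13% of the 9006 that belong to genes passing the filter. CCAAT, on either strand, was likewise in 27 of the 35 (77.1%), against 37.9% and 39.4%, and 54.3% of the members' promoters held it at least 2 times, against 12.2% of all. Where CCAAT and its reverse overlap, as in CCAATTGG, each strand is counted. In a narrower window, from 60 bases before to 40 after the start, which was chosen after the counts above were known, the CHR letters stood in 23 members (65.7%) and in 5.41% of all promoters. Both that narrow CHR match and a CCAAT were in 60% of the members and 2.35% of all promoters. Among the lists of related genes described below, the CHR letters were in 71.4% of 7 condensin promoters, 68.4% of 19 for other motor, spindle and cytokinesis genes, 50% of 8 for other entry control and 45% of 20 for other kinetochore and checkpoint genes. They were in 27.8% of 18 promoters for G2/M transcription, 23.5% of 17 for replication, 16.7% of 6 for cohesin and 8.33% of 12 for the APC/C core. CCAAT was in 76.5% of the replication promoters and 42.9% of those for condensin. A match of letters is no evidence of binding. The 200 bases before the start are shown, 5′ to 3′ along the gene, for the 4 members that stood highest above both differentiating NT libraries in FUBP1-D (Cdc20, Ube2c, Ccnb2 and Mki67) and for the central pair of mitotic entry (Cdk1 and Ccnb1). Capitals mark CHR and CCAAT letters or their reverse complements, and coordinates are GRCm38.p6, not the mm9 build of the expression table.
Cdc20 promoter, chr4:118437344-118437543, minus strand: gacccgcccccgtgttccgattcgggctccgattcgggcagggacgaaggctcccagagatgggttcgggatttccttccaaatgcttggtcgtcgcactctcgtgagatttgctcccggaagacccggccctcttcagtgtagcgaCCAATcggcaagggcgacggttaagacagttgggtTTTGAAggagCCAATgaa
Ube2c promoter, chr2:164769729-164769928, plus strand: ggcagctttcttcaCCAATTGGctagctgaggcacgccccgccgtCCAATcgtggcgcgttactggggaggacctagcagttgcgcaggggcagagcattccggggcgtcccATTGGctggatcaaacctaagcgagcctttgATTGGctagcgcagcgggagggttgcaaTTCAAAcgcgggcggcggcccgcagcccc
Ccnb2 promoter, chr9:70421555-70421754, minus strand: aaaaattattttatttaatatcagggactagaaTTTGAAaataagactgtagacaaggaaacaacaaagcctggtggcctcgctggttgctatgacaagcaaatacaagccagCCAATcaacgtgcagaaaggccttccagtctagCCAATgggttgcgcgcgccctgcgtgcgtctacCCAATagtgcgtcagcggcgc
Mki67 promoter, chr7:135716380-135716579, minus strand: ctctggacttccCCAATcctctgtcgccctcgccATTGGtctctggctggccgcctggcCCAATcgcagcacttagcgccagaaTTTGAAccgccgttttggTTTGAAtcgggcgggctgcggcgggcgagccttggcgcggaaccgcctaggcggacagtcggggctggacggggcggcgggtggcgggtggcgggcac
Cdk1 promoter, chr10:69352913-69353112, minus strand: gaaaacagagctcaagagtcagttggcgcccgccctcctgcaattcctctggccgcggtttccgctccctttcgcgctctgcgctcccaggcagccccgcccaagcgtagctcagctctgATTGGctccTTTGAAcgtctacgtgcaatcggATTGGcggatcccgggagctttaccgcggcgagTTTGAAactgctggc
Ccnb1 promoter, chr13:100786487-100786686, minus strand: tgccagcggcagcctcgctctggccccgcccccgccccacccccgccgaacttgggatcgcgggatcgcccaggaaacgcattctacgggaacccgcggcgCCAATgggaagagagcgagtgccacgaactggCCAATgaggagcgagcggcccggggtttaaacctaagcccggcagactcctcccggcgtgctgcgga
Cdc20 holds TTTGAA from 18 to 13 bases before its start, and Ube2c holds its reverse from 29 to 24 bases before. Cdk1 has TTTGAA at 2 places and 3 CCAAT matches in the 300 bases. The 2 matches of Mki67 to TTTGAA begin 116 and 98 bases before the annotated start, outside the narrow window. The Ccnb1 promoter holds 2 CCAAT matches and no CHR letters, so the pattern is not shared by every member.

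Some properties of the libraries bear on what follows. Values are FPKM, fragments scaled by transcript length and library size, which allow genes to be compared per length. Their absolute depth is unknown. The most frequent step between low values, relative to TRC, was 0.942 to 1.05 in the other proliferating libraries. It was 1.20 to 1.34 in the differentiating ones. Only 8.40% (CIC-D) to 19.9% (FUBP1) of a library's step ratios lay within 5% of its most frequent one. Low values may therefore be coarser in the differentiating libraries. Fubp1 was lowest in GFP, a library labelled NT, at 12.4 FPKM, beside 50.2 in TRC and 34.8 in the library labelled FUBP1. In the differentiating state it was at 24.8, 25.4, 21.6 and 26.9 FPKM in 7, GFP-D, FUBP1-D and CIC-D. Directions given for FUBP1 and FUBP1-D are therefore those of libraries so labelled. Cic was at 13.3 FPKM in CIC and 33.8 to 49.5 in the other proliferating libraries, and at 25.6 in CIC-D and 32.1 to 42.0 in the other differentiating ones. Across the 11968 rows tested, Pearson's r of log2(FPKM + 1) was 0.980 between TRC and FUBP1 and 0.914 between TRC and GFP. In the differentiating state it was 0.959 between 7 and FUBP1-D and 0.927 between 7 and GFP-D. For CIC it was 0.891 with TRC, 0.896 with GFP and 0.916 with FUBP1. For CIC-D it was 0.946 with 7, 0.922 with GFP-D and 0.916 with FUBP1-D. Prom1, a progenitor surface marker singled out after its values were seen, lay between 2.62 and 19.5 FPKM in TRC, FUBP1, 7 and FUBP1-D and at or below 0.277 FPKM in the others. The labels name no batch. Comparisons of FUBP1-labelled libraries are thus also given against TRC or 7 alone.

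Cell type markers were read as sums of FPKM over short lists. The progenitor list (9 genes) summed to 3393 to 5055 FPKM in the proliferating and 2915 to 4560 in the differentiating libraries, with Vim alone at 1666 to 3842, so markers of the labelled cell type were present, although Hes5 reached at most 1.01 FPKM. Of the 8 progenitor genes tested, 1 passed as higher and 1 as lower in the differentiating libraries. The astrocyte list (8 genes) summed to 250.2 to 343 FPKM in the proliferating and 960.1 to 1286 in the differentiating libraries, and 5 of its 8 genes passed the test as higher there. The oligodendrocyte lineage list summed to between 53.7 and 111 FPKM in the proliferating and between 121 and 284 in the differentiating libraries, with 2 of 5 tested genes higher, and the ependymal list (4 of 6 genes in the table) to between 5.60 and 25.1 and between 39.1 and 57.7, with 2 of 4 higher. Of all 11968 rows tested, 2533 passed as higher and 2114 as lower. The part of these lists in the state change of the members was not tested. Of 7 neuron markers, Rbfox3, Dcx, Snap25 and Syt1 stayed below 1 FPKM in every library. The neuron list summed to 28.4 to 58.6 FPKM in the proliferating and 38.0 to 62.7 in the differentiating libraries, with 1 of 3 tested genes higher. All 4 endothelial markers and 5 of 6 microglial markers were below 1 FPKM throughout. In bulk RNA, fewer cells of a type and less RNA per cell cannot be told apart.

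The first comparison asks how the members' transcripts differ between the proliferating and the differentiating state. All 44 fell. Their median was 50.7 FPKM in TRC, 19.4 in GFP, 53.5 in FUBP1 and 36.0 in CIC, against 0.844, 0.659, 5.09 and 0.517 in 7, GFP-D, FUBP1-D and CIC-D. For each of the 44, every proliferating library lay above every differentiating one, which held for 17.8% of all rows tested. In an additive model of state and target over the 8 libraries (limma, log2(FPKM + 1), Benjamini-Hochberg over 11968 rows, threshold 0.05), 44 of 44 passed as lower, beside 17.7% of all rows. The fitted changes ran from -2.43 (Incenp) to -5.79 (Ube2c) on the log2 scale, with SEs of 0.25 to 0.61, limma adjusted p of 5.8e-04 to 0.0027 and a median of -3.96, beside 0.09 over all rows. The summed level of the 44 was 954 to 2951 FPKM in the proliferating libraries and 61.7 to 258 in the differentiating ones.

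**Figure D1:**
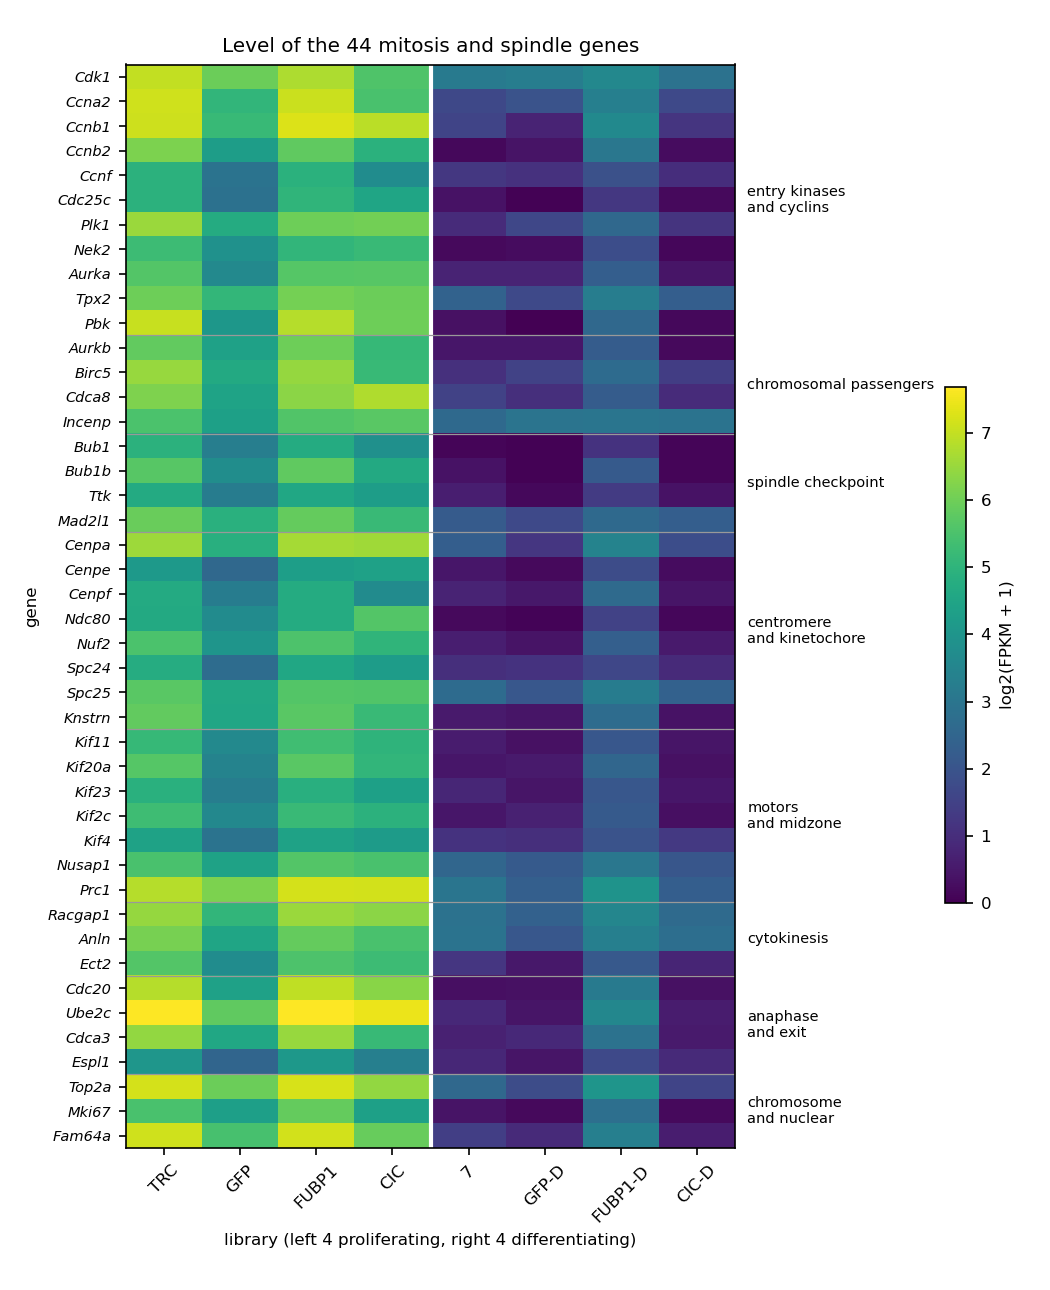
Level of each of the 44 members (rows, grouped by role) in each of the 8 libraries (columns), as log2(FPKM + 1) on the colour scale. The 4 proliferating libraries on the left are brighter in every row, GFP is the dimmest of them in 43 of 44 rows, and FUBP1-D is the brightest of the 4 differentiating libraries in 44 of 44. The ranks of GFP and FUBP1-D were not counted over all rows tested.

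Entry into mitosis is represented by 11 members. Cdk1 (chromosome 10, 68799382 to 68815660, mm9), the kinase that triggers mitosis, was at 125.5 FPKM in TRC, 61.8 in GFP, 106 in FUBP1 and 46.1 in CIC, and at 7.88, 8.48, 10.9 and 6.38 in 7, GFP-D, FUBP1-D and CIC-D. The lowest proliferating library was 4.21 times the highest differentiating one, and the differentiating libraries all kept several FPKM. The fitted change was -3.10 (SE 0.25, limma adjusted p = 6.2e-04). Ccnb1 (cyclin B1), the regulatory partner of CDK1, stood at 136, 35.1, 154 and 118 FPKM in TRC, GFP, FUBP1 and CIC, against 2.01, 0.708, 11.4 and 1.27 in 7, GFP-D, FUBP1-D and CIC-D. It changed by -4.82 (SE 0.49, adjusted p = 9.7e-04), and FUBP1-D was the one differentiating library above 3 FPKM. Ccna2 (cyclin A2), Ccnb2 (cyclin B2), Ccnf (cyclin F), the CDK1-activating phosphatase gene Cdc25c, and the kinase genes Plk1, Nek2, Aurka and Pbk fell too, as did Tpx2, which encodes the activator of Aurora A on the spindle. The steepest of the 11 was Pbk, at -5.21 (SE 0.61), whose level was 129.5 FPKM in TRC, 0.113 in CIC-D and listed at 0 in GFP-D. The shallowest was Ccnf, at -2.81 (SE 0.40).

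The chromosomal passenger complex corrects faulty attachments and later guides cytokinesis. Its kinase gene Aurkb was at 56.7, 20.1, 62.5 and 34.2 FPKM in TRC, GFP, FUBP1 and CIC, and at 0.388, 0.367, 3.74 and 0.155 FPKM in 7, GFP-D, FUBP1-D and CIC-D. The change was -4.50 (SE 0.35, limma adjusted p = 5.8e-04), and FUBP1-D held 9.64 times the level of the next highest differentiating library. Cdca8 (borealin) was highest in CIC, at 109 FPKM, beside 71.9 in TRC, 21.0 in GFP and 80.9 in FUBP1. In the differentiating state Cdca8 was at 1.86, 1.03, 3.68 and 0.922 FPKM in 7, GFP-D, FUBP1-D and CIC-D, a change of -4.52 (SE 0.46, adjusted p = 9.5e-04). Birc5 (survivin) fell by 4.04 on the log2 scale. Incenp, the scaffold of the complex, changed least of all 44. It lay between 19.7 and 52.0 FPKM in the proliferating libraries and at 5.14, 6.74, 6.92 and 6.61 FPKM in 7, GFP-D, FUBP1-D and CIC-D, levels that hardly differed from each other.

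Of the 4 spindle checkpoint genes, Mad2l1, whose product MAD2 holds CDC20 inactive, was at 59.5, 28.7, 56.9 and 35.8 FPKM in TRC, GFP, FUBP1 and CIC. Its differentiating levels were 3.65, 2.22, 5.13 and 3.96 FPKM in 7, GFP-D, FUBP1-D and CIC-D, so it stayed measurable in every library. The change was -3.26 (SE 0.27, limma adjusted p = 6.6e-04). The kinase gene Bub1 and Bub1b (BUBR1) instead came close to 0 outside FUBP1-D. Bub1 was at 0.0779, 0.0303 and 0.0656 FPKM in 7, GFP-D and CIC-D and at 1.17 in FUBP1-D, and Bub1b at 0.29, 0.0329 and 0.0743 beside 3.56. The fitted changes were -3.86 for Bub1, -4.30 for Bub1b and -3.56 for Ttk (MPS1), the kinase that starts checkpoint signalling.

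The 8 centromere and kinetochore genes include all 4 subunits of the NDC80 complex, the main microtubule coupler of the kinetochore. Nuf2, one of these, was at 44.8, 15.2, 45.6 and 31.9 FPKM in TRC, GFP, FUBP1 and CIC and at 0.552, 0.334, 3.98 and 0.482 in 7, GFP-D, FUBP1-D and CIC-D, a change of -4.05 (SE 0.37, limma adjusted p = 7.8e-04). Ndc80 itself was highest in CIC (48.9 FPKM, beside 24.7 in TRC, 12.04 in GFP and 25.7 in FUBP1) and at or below 0.138 FPKM in 7, GFP-D and CIC-D. The subunits thus did not share 1 residual level: in 7, Spc25 was at 5.41 and Spc24 at 1.07 FPKM, beside 0.552 for Nuf2 and 0.138 for Ndc80. Cenpa, the histone H3 variant that marks centromeres, was at 93.0, 27.9, 99.9 and 94.4 FPKM in the proliferating libraries, in the same order, and at 3.91, 1.34, 9.72 and 2.55 FPKM in the differentiating ones. It changed by -3.97 (SE 0.44, adjusted p = 0.0012), with FUBP1-D 2.49 times the next highest. The kinesin gene Cenpe, Cenpf of the outer kinetochore and Knstrn, which encodes a spindle and kinetochore adaptor, changed by -3.17, -2.998 and -4.31.

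Among the 7 genes of motors and the spindle midzone, Prc1, whose product bundles antiparallel microtubules at the midzone, had the highest mean level of the group and the smallest p of all 44. It was at 112, 71.3, 145 and 141.5 FPKM in TRC, GFP, FUBP1 and CIC and at 6.85, 3.97, 14.3 and 3.87 FPKM in 7, GFP-D, FUBP1-D and CIC-D. The change was -3.96 (SE 0.30, limma adjusted p = 5.8e-04). The others are Kif11 (Eg5, which pushes spindle poles apart), Kif20a and Kif23 (midzone kinesins of cytokinesis), Kif2c (MCAK, a microtubule depolymerase), the chromokinesin gene Kif4 and Nusap1, which stabilises spindle microtubules. They changed by between -2.64 (Kif4) and -3.99 (Kif20a). Racgap1, which with KIF23 forms the centralspindlin complex, had the smallest p of the 3 cytokinesis genes. It stood at 87.4, 32.3, 91.9 and 80.9 FPKM in TRC, GFP, FUBP1 and CIC and at 6.41, 4.18, 10.5 and 5.29 FPKM in 7, GFP-D, FUBP1-D and CIC-D, a change of -3.25 (SE 0.32, adjusted p = 9.4e-04). Anln (anillin, a contractile ring scaffold) and Ect2 (the RhoA activator at the division site) changed by -2.72 and -3.87.

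The list of 4 genes named anaphase and exit held the steepest change. Cdca3 was placed in this list without evidence here for a part in anaphase or exit. Ube2c (chromosome 2, 164595428 to 164598402, mm9), the ubiquitin-conjugating enzyme that serves the APC/C, was at 204.5 FPKM in TRC, 54.9 in GFP, 204.5 in FUBP1 and 175 in CIC. In 7, GFP-D, FUBP1-D and CIC-D it was at 0.864, 0.349, 10.9 and 0.499 FPKM. The change was -5.79 (SE 0.53, limma adjusted p = 7.9e-04), and FUBP1-D stood 12.6 times above the next highest differentiating library. Cdc20 (chromosome 4, 118105505 to 118109948), the APC/C activator at anaphase onset, changed by -5.08, Cdca3 by -4.42 and Espl1 (separase, which cleaves cohesin) by -2.51. Of the 3 remaining genes, Mki67, the source of the proliferation marker Ki-67, was at 43.2, 19.1, 57.4 and 19.5 FPKM in TRC, GFP, FUBP1 and CIC and at 0.332, 0.135, 5.93 and 0.134 FPKM in 7, GFP-D, FUBP1-D and CIC-D (change -4.11, SE 0.35, adjusted p = 6.8e-04). Top2a, which encodes the topoisomerase that untangles sister chromatids, was at 144, 61.2, 148 and 85.6 FPKM in the proliferating libraries, in that order. In 7, GFP-D and CIC-D it was at 5.08, 2.42 and 2.003 FPKM and in FUBP1-D at 15.2, the highest member there (change -4.20, SE 0.38, adjusted p = 7.8e-04). Fam64a changed by -4.84.

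**Figure D2:**
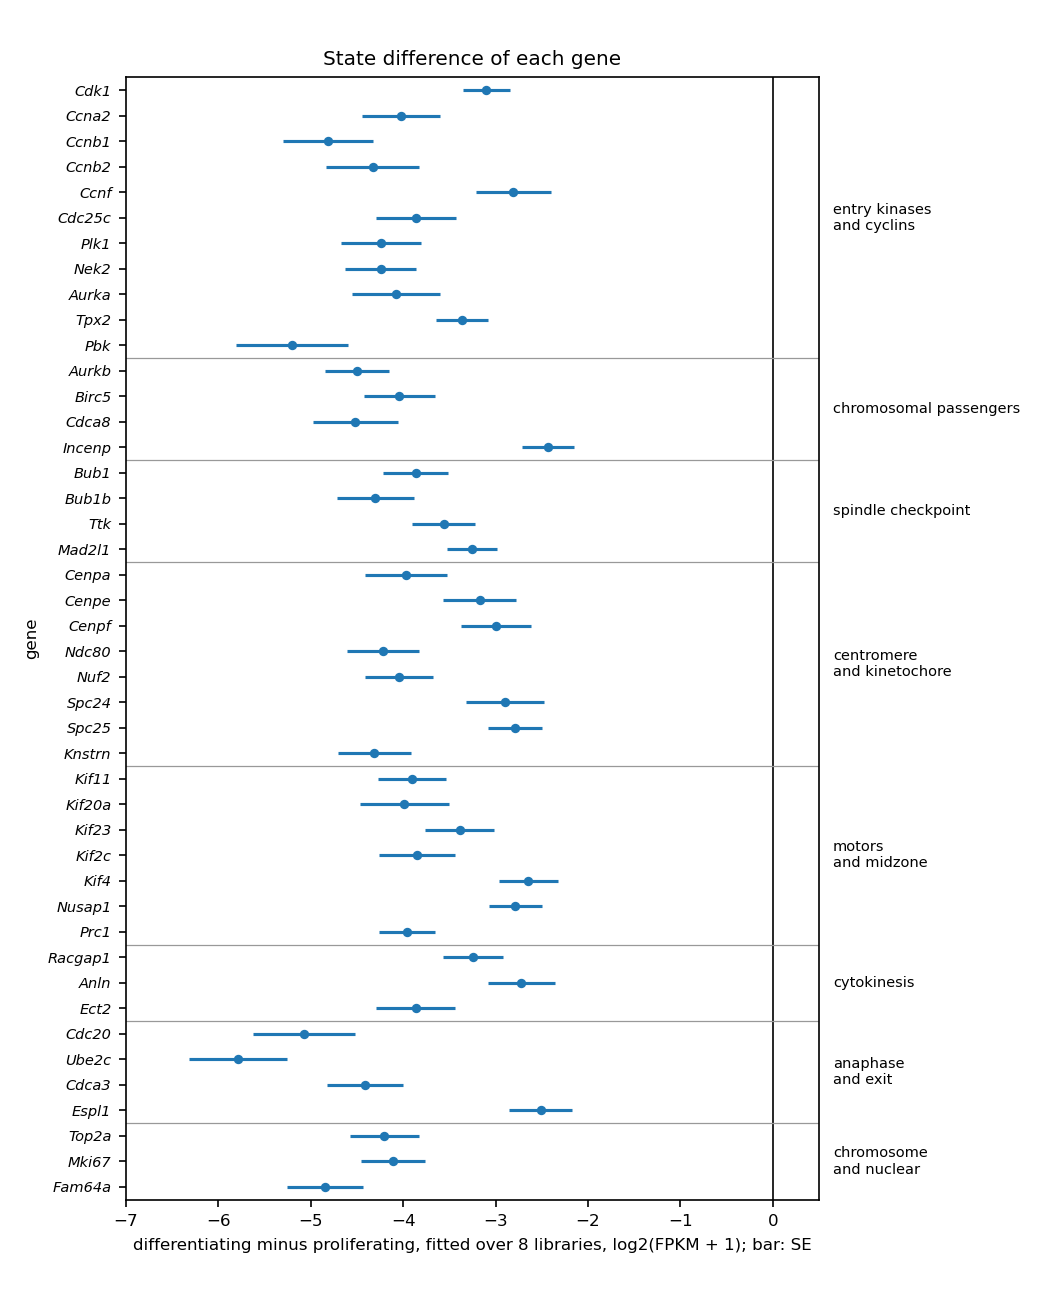
Fitted state difference of each of the 44 members (rows, by role) on the log2(FPKM + 1) scale, differentiating minus proliferating, with bars of 1 SE from the additive model over 8 libraries. Every point lies left of 0, from -2.43 for Incenp to -5.79 for Ube2c.

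The call did not need any single library: 44 of 44 passed with other pseudocounts, filters, scalings and with each library left out, and 42 without 7 and FUBP1-D, where Ccnf (adjusted p = 0.0562) and Spc24 (adjusted p = 0.055) did not pass by limma. Within the 4 NT libraries the median change was -3.92, and all 44 were lower, but 18 passed (0.886% of all rows), with limma adjusted p from 0.0435 to 0.0989 over the 44. That count rests on 2 residual degrees of freedom and on single libraries, since leaving out TRC, 7 or GFP-D took it to 0 and leaving out GFP took it to 44. Paired by library name, with TRC and 7 as the pair that remains, 44 passed (3.33% of all rows), on 1 residual degree of freedom.

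Genes of the same processes outside the 44 fell unevenly. The APC/C core, whose ligase also acts in cells that have left the cycle, had 1 of 13 genes lower (Cdc27, at 34.3, 23.0, 29.9 and 32.3 FPKM in TRC, GFP, FUBP1 and CIC and at 19.6, 20.0, 22.8 and 15.9 in 7, GFP-D, FUBP1-D and CIC-D). Its next smallest p belonged to Cdc23 (-0.62, limma adjusted p = 0.059). Other kinetochore and checkpoint genes were lower in 25 of 27, with Cenpi at -3.05 and Cenpk at -2.18, and other motor, spindle and cytokinesis genes in 19 of 22, with Kif22 at -3.95 and Gtse1 at -3.05. Condensin genes fell in 7 of 8, led by Ncapg (-3.75) and Ncaph (-3.29), and cohesin genes in 4 of 10, led by Pttg1 (securin, -2.69) and Smc1a (-0.98). Other genes of entry control fell in 9 of 11, led by Cks1b (-3.50) and Cks2 (-3.57), small subunits of CDK complexes. Of 23 genes for G2/M and E2F transcription, 13 fell, led by Foxm1 (-3.44) and E2f8 (-3.18), and 2 rose, Rbl2 (p130, 1.27) and Lin52 (0.62), both parts of the DREAM complex. Over all 11968 rows tested, 2114 fell and 2533 rose. All 20 genes of replication licensing and the replication fork fell, with Mcm2 at -3.50 and Mcm5 at -4.94. The median change was -0.23 for the APC/C core, -2.64 for replication and -3.96 for the 44.

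The second comparison concerns what was left of the members in the differentiating libraries, and above all in FUBP1-D. FUBP1-D held more of every member than 7, GFP-D and CIC-D did. All 44 reached 1 FPKM there, against 20 in 7, 18 in GFP-D and 17 in CIC-D, and 24 reached 5 FPKM, against 7, 2 and 4. Of all 20793 rows, 11529 reached 1 FPKM in FUBP1-D, 11489 in 7, 11345 in GFP-D and 11143 in CIC-D. How many of all rows reached 5 FPKM, or were highest in FUBP1-D, was not counted. As a percent of the mean of the 4 proliferating libraries, FUBP1-D held a median of 11.6%, from 5.21% (Cdca8) to 30.4% (Cenpf). The medians were 2.15% in 7, 1.55% in GFP-D and 1.52% in CIC-D. Set against the proliferating library with the same label, FUBP1-D was at a median of 9.13% of FUBP1, from 4.41% (Cdc25c) to 21.2% (Cenpf), CIC-D at 1.59% of CIC, GFP-D at 4.34% of GFP and 7 at 1.52% of TRC. The share for GFP-D is taken of GFP, whose own levels were the lowest of the proliferating libraries.

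FUBP1-D lay above both 7 and GFP-D in 44 of 44 members, which held for 34.9% of all rows. By more than 1 log2 unit it did so in 26 of 44, beside 1.24% of all rows, and in 7 of 44 with a pseudocount of 5. The median difference from the mean of 7 and GFP-D was 1.45 on the log2(FPKM + 1) scale, beside 0.03 over all rows, and it was 1.37 against 7 alone and 1.56 against GFP-D alone. With pseudocounts of 0.1 and 5 it was 2.37 and 0.63. These are single libraries, so the counts are descriptions. A test of FUBP1-D against the 2 NT libraries, with the spread of the NT pairs assumed for it, called 0 of the 44 (limma adjusted p = 0.9996 for each), while 15 were at an unadjusted p under 0.05, as were 161 of all rows.

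Ranked by the smaller of the differences from 7 and GFP-D, Cdc20 led with 2.81 on the log2(FPKM + 1) scale. It was at 0.233, 0.273 and 0.265 FPKM in 7, GFP-D and CIC-D and at 7.95 in FUBP1-D. In the proliferating state Cdc20 was at 112, 20.1, 122 and 78.5 FPKM in TRC, GFP, FUBP1 and CIC, so FUBP1-D stayed below all of these. Ube2c (2.67) and Ccnb2 (2.65) followed. Ccnb2 was at 0.121, 0.314 and 0.193 FPKM in 7, GFP-D and CIC-D and at 7.22 in FUBP1-D. The next were Mki67 (2.38), the kinase gene Pbk (2.25), Knstrn (2.17), Ccnb1 (2.05), Kif20a (2.001), Cdca3 (1.99) and Fam64a (1.92). These 10 come from 5 of the 8 role groups and include no passenger, checkpoint or cytokinesis gene. Knstrn was at 0.456, 0.356 and 0.299 FPKM in 7, GFP-D and CIC-D and at 5.54 in FUBP1-D. At the other end were Incenp (0.03), Cdk1 (0.33), Mad2l1 (0.40) and Anln (0.41), each of which kept at least 2.22 FPKM in every differentiating library.

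**Figure D3:**
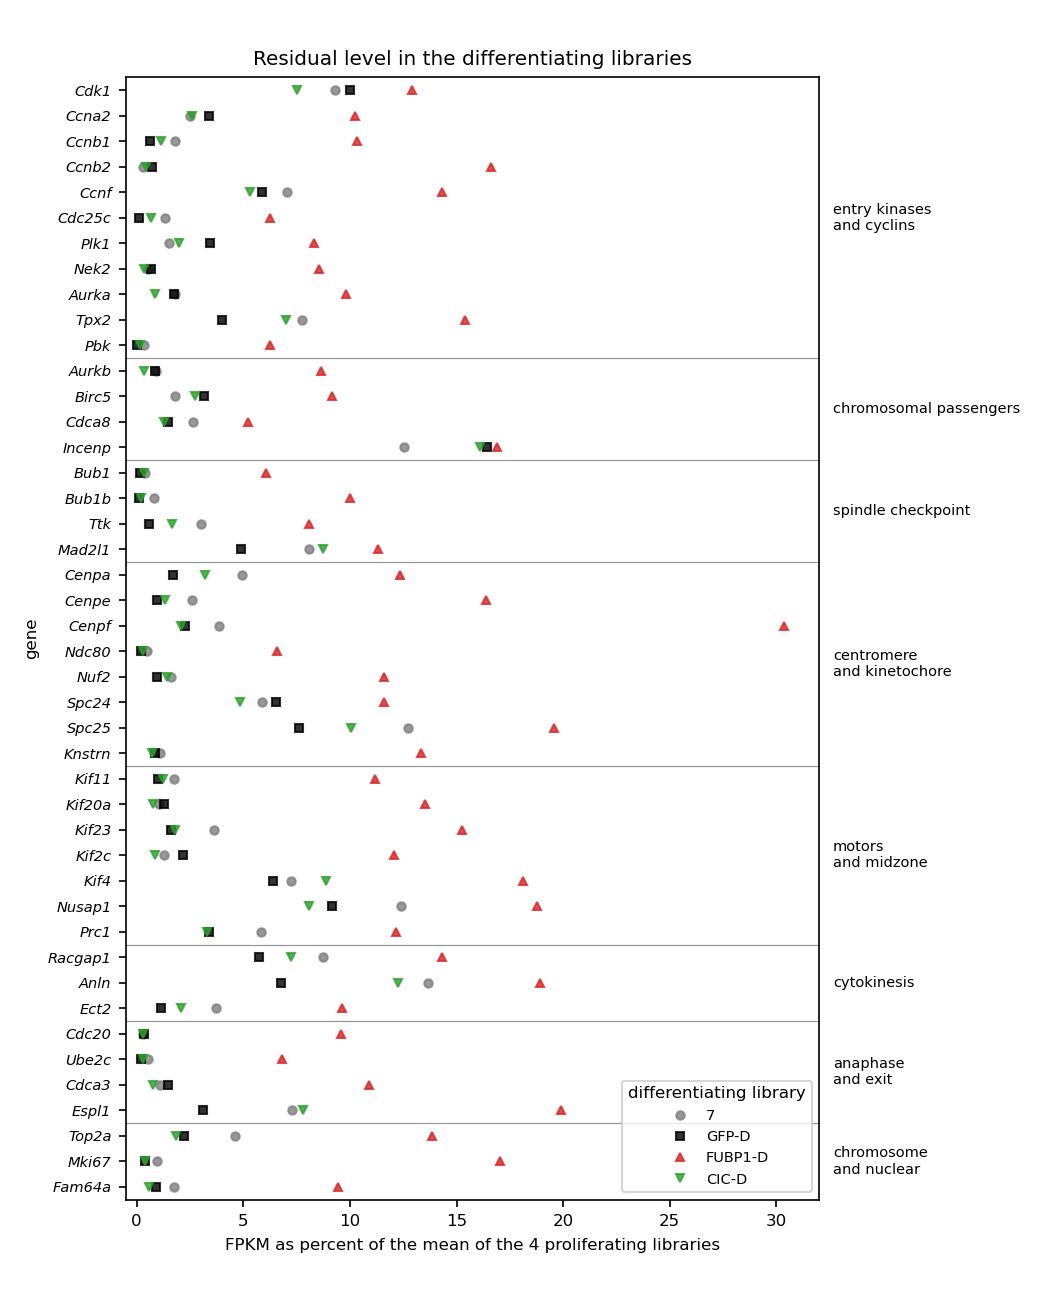
FPKM of each member (rows, by role) in the 4 differentiating libraries as a percent of the mean of the 4 proliferating libraries. FUBP1-D (triangles pointing up) is the rightmost point in every row, from 5.21% for Cdca8 to 30.4% for Cenpf, and the other 3 libraries range from 0% (Pbk in GFP-D) to 16.4% (Incenp in GFP-D).

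Taken as a fold between members, the residual levels varied far more in the other differentiating libraries than in FUBP1-D. From the lowest to the highest member, the percent of the proliferating mean spanned 49.3-fold in 7 and 115-fold in CIC-D, but 5.83-fold in FUBP1-D. In GFP-D it started from Pbk listed at 0. These folds rest on lowest members near 0, Ccnb2 at 0.121 FPKM in 7 and Pbk at 0.113 in CIC-D. In percent points FUBP1-D spanned the most, from 5.21% to 30.4%. The span was 0.28% to 13.7% in 7, 0% to 16.4% in GFP-D and 0.14% to 16.1% in CIC-D. Anln, Ccnf, Cdk1, Incenp, Kif4, Nusap1, Racgap1 and Spc25 (8 members) were above 5% in 7, GFP-D and CIC-D alike. Aurkb, Bub1, Bub1b, Ccnb2, Cdc20, Mki67, Ndc80, Nek2, Pbk and Ube2c (10 members) were below 1% in all 3. In FUBP1-D no member was below 5%. A fold over the NT libraries therefore depends on how low those levels are. As a measure that does not divide by the NT level, and added after the values were seen, the FPKM in FUBP1-D beyond the mean of 7 and GFP-D was taken as a percent of the proliferating mean. Its median was 8.10% of the proliferating level over the 44, with quartiles of 6.40% and 10.3%. It was positive in 44 of 44 and highest for Cenpf (27.3%), Mki67 (16.4%), Ccnb2 (16.1%), Espl1 (14.7%) and Cenpe (14.6%). The lowest were Incenp (2.39%), Cdca8 (3.16%) and Cdk1 (3.25%). The same measure for CIC-D had a median of -0.25% and was positive in 11 of 44.

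By role, the median excess in FUBP1-D was 4.92% for the passengers, 6.04% for the checkpoint, 7.21% for cytokinesis, 7.87% for entry kinases and cyclins, 9.45% for anaphase and exit, 9.86% for the kinetochore, 10.3% for motors and midzone, and 10.4% for the chromosome and nuclear genes. These groups hold 3 to 11 genes, and neighbours in this order overlapped in range. Outside the 44, the median excess was 10.1% for the other motor, spindle and cytokinesis genes and 7.16% for the other kinetochore genes, 6.17% for cohesin, 4.998% for the APC/C core, 4.18% for condensin and 3.58% for other entry control. It was 2.17% for the 20 replication genes, of which 1 (Tyms) exceeded 5%, and -2.21% for G2/M transcription. The NT mean itself held a median of 79.85% of the proliferating level for cohesin and 81.3% for the APC/C core. For the APC/C core the excess ran from -12.7% to 43.6% in FUBP1-D, and its median in CIC-D was 3.16%. This measure was not taken over all rows. On the log2(FPKM + 1) scale, the median difference of FUBP1-D from the NT mean was 0.91 for the other motors, 0.49 for the other kinetochore genes, 0.19 for replication and -0.09 for G2/M transcription, beside 1.45 for the members. It was 0.32 for other entry control, 0.31 for condensin, 0.12 for cohesin and 0.11 for the APC/C core. The genes beyond 1 log2 unit above both NT libraries included Aspm, Dlgap5, Cep55, Hmmr, Troap, Tacc3, Kif18b and Ckap2l of the motor and spindle list, Cenpm, Zwilch and Sgol1 of the kinetochore list, the kinase gene Melk and the transcription factor gene Foxm1. Foxm1, which activates G2/M genes, was at 0.784, 0.733 and 0.710 FPKM in 7, GFP-D and CIC-D and at 3.66 in FUBP1-D. Among replication genes Mcm5 alone did so, at 0.175, 0.241 and 0.256 FPKM beside 1.64, whereas Cdt1, a licensing factor that acts in G1, was lowest in FUBP1-D, at 0.8294 FPKM beside 2.54, 2.56 and 2.02.

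**Figure D4:**
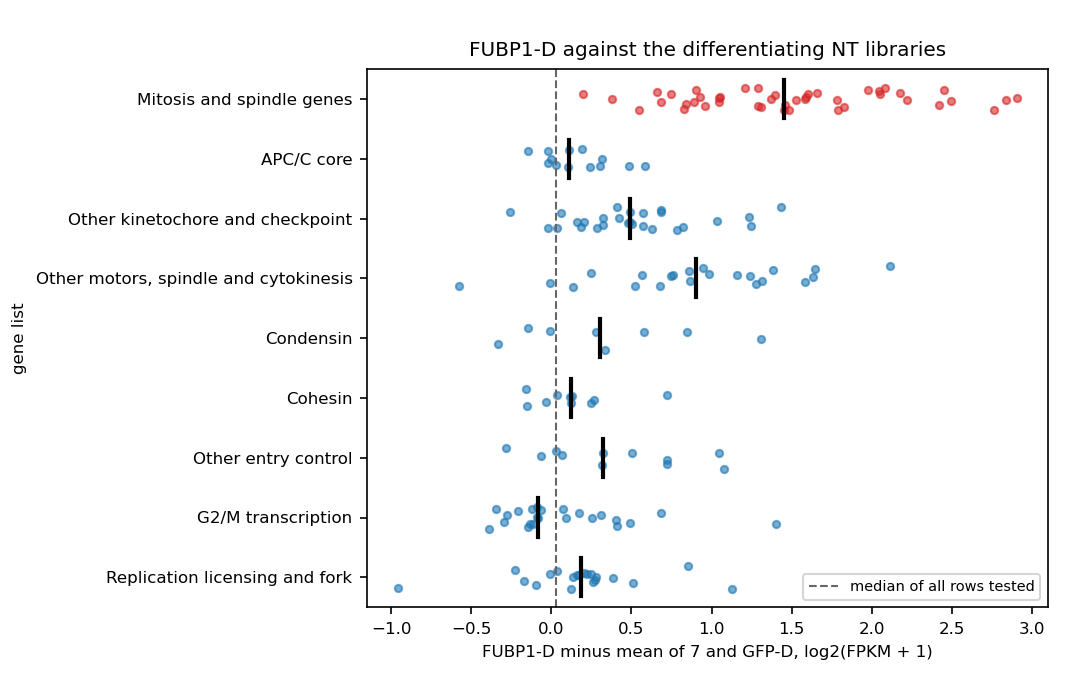
Difference of FUBP1-D from the mean of 7 and GFP-D on the log2(FPKM + 1) scale, with 1 point per gene for the 44 members and for 8 lists of other genes, spread vertically for legibility. Black bars are list medians (1.45 for the members, 0.19 for replication), and the dashed line is the median of all 11968 rows tested (0.03).

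The median member level was 0.844 FPKM in 7 and 5.09 in FUBP1-D. The astrocyte, progenitor, neuron and oligodendrocyte lineage sums of FUBP1-D lay closer to those of 7 than to those of GFP-D and CIC-D. The ependymal sum did not: it was 45.15 FPKM in FUBP1-D, beside 39.14 in 7, 48.86 in GFP-D and 57.71 in CIC-D. The neuron sum was 56.45 FPKM in FUBP1-D, beside 53.48, 62.68 and 37.97 in 7, GFP-D and CIC-D. The astrocyte marker sum of FUBP1-D, 1286 FPKM, was the highest of the 8 libraries, beside 1192 in 7, 960.1 in GFP-D and 1156 in CIC-D. Its progenitor marker sum was 4560 FPKM, close to the 4484 in 7 and above 3173 in GFP-D and 2915 in CIC-D. The oligodendrocyte lineage sum was 284 FPKM in FUBP1-D and 275 in 7, beside 121 and 134 in GFP-D and CIC-D, while Sox10, Mog and Mag were below 1 FPKM in every library. The part of these cell type differences in the mitotic levels was not tested.

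Over both states, the FUBP1 label was set against NT in the additive model. All 44 members had a positive difference, beside 6420 of all 11968 rows. It ran from 0.32 (Cdk1) to 2.09 (Cdc20) in the members, with a median of 1.13 beside 0.02 over all rows. None passed the limma test, where 0 of all 11968 rows did (0%), with an adjusted p of 0.999 for each member. At an unadjusted p under 0.05 there were 24 members and 256 rows. With each library left out in turn, that number of members went from 0 to 41 and the median from 0.74 to 1.57. They were 0.74 and 0 without FUBP1-D, 0.83 and 12 without GFP, 1.05 and 12 without GFP-D, 1.57 and 22 without FUBP1, and 1.47 and 41 (935 rows) without TRC. Without GFP and GFP-D together they were 0.69 and 1. The proliferating state was also taken alone. In the proliferating state 25 of 44 members were higher in FUBP1 than in both NT libraries, beside 26.7% of all rows, and its median difference was 0.03 from TRC but 1.58 from GFP. The test of whether the FUBP1 difference changes with state called 0 members and 0 rows (0%; unadjusted p under 0.05 in 0 members and 99 rows). Its median over the members was 0.66, but -0.17 without TRC, 1.46 without GFP and -0.05 with a pseudocount of 5, so its direction was not settled by these libraries.

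Within the proliferating state GFP, the second NT library, stood apart. It was below TRC in 44 of 44 members (51.2% of all rows), at a median of 30.5% of the TRC level, from 12.1% (Pbk) to 63.7% (Prc1). It was the lowest of the 4 in 43 of 44, the exception being Cdk1, which was lowest in CIC. How many of all rows were lowest in GFP was not counted, so this rank has no background share beside it. FUBP1 was at 68.0% (Plk1) to 133% (Mki67) of TRC, with a median of 102%. Every member still reached 4.67 FPKM in GFP (Espl1 the lowest). GFP is also the library with the lowest Fubp1 level. The part of that in the members' levels was not tested.

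For the CIC label 0 of 44 members passed, beside 13 rows in all (0.109%), with fitted differences from -0.62 (Cdk1, SE 0.31) to 0.72 (Ndc80, SE 0.47) and limma adjusted p from 0.476 to 0.978. At an unadjusted p under 0.05 there were 0 members and 1368 rows. In the proliferating state CIC lay between TRC and GFP in 36 members, above both in 7 (31.4% of all rows) and below both in 1, Cdk1 (39.9%). It was at 31.6% (Ccna2) to 198% (Ndc80) of TRC, a wider range than that of FUBP1, with a median of 70.8%. On the log2(FPKM + 1) scale the median difference of CIC was -0.49 from TRC alone and 1.055 from GFP alone. CIC was the highest of the 4 for Aurka, Cdca8, Cenpe, Incenp and Ndc80. Ccna2 was at 138.8, 32.2, 133.5 and 43.8 FPKM in TRC, GFP, FUBP1 and CIC, so it was nearer to GFP than to TRC in CIC, whereas Ccnb1, at 118 FPKM there, was nearer to TRC. In the differentiating state 3 members were higher in CIC-D than in both NT libraries (30.8% of all rows) and 17 were lower (34.1%), with a median difference of -0.08 from their mean. That median was -0.18 from 7 alone and -0.006 from GFP-D alone. The direct difference of the FUBP1 and CIC labels called 0 members, beside 6 rows in all (0.0501%), with a median of 0.94 over the members and 12 of them at an unadjusted p under 0.05 (1341 rows). Leaving out FUBP1-D took these to 0.55 and 1 member and leaving out CIC-D to 0.72 and 2. Without FUBP1 the median was 1.36 with 14 members, and without CIC 1.36 with 5. Without TRC or GFP the median stayed at 0.94, with 24 and 20 members, and without 7 and FUBP1-D it was 0.53 with 0. The test of whether the CIC difference changes with state called 0 members and 0 rows (0%; unadjusted p under 0.05 in 0 members and 512 rows).

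**Figure D5:**
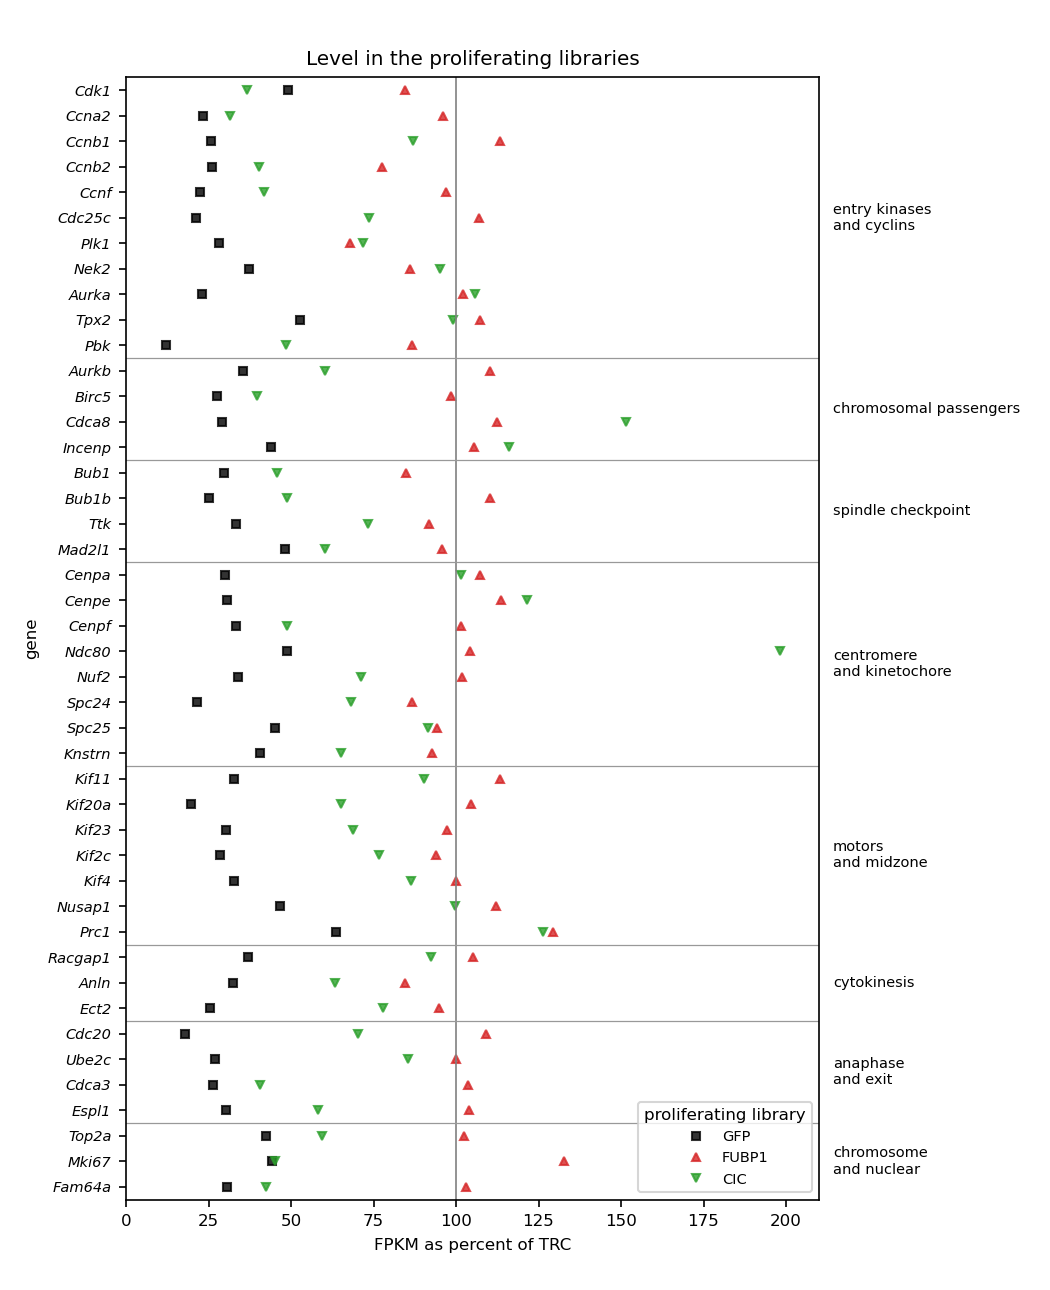
FPKM of each member (rows, by role) in GFP, FUBP1 and CIC as a percent of TRC, with a line at 100%. GFP points lie between 12.1% and 63.7%, FUBP1 points between 68.0% and 133%, and CIC points spread from 31.6% (Ccna2) to 198% (Ndc80).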

How the data were processed

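The authors deposited 1 table of FPKM per gene. It rests on mm9, and TopHat2 2.0.11, Cufflinks 2.1.1, cutadapt and bcl2fastq 2.17 are named for it, per the submitters' processing notes. The gene annotation and the use of strand are not given in the sources used. FPKM were used without rescaling, as log2(FPKM + 1), which understates the change of low genes. A row was tested if 2 or more libraries reached 1 FPKM (11968 of 20793) with limma 3.58.1 in R 4.3.3 (trend, two-sided, Benjamini-Hochberg, 0.05). The additive model of state and target had 4 residual degrees of freedom. The 6 group means, with 2, served the NT contrast and the differences by state, and there single libraries were assumed to vary like NT ones. The fits were tested on simulated data. Replicate numbers come from accession order. Library names tie GFP to GFP-D, FUBP1 to FUBP1-D and CIC to CIC-D, while TRC and 7 share no name and are the pair that remains. Deviations from the state means correlated at 0.51, 0.333, 0.419 and, for TRC and 7, 0.114 over the tested rows, so fits with the pair as a block were added.

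Members and lists were chosen with earlier results of these data known. Per role, the member with the smallest p and the one with the highest mean level are given in every library. For FUBP1-D the 10 members with the largest smaller difference from the NT libraries are named, and for each other list the 2 genes with the smallest p and any called against its direction. Members not named by these rules were picked after their values were seen. Alternatives covered pseudocount, filter, rescaling, trend and left-out libraries.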

Additional observations from a re-analysis of the deposited data

Results flagged for a closer look

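In the differentiating state FUBP1-D stood far from the other 3 libraries. Its median member level, 5.09 FPKM, was separated from the next by 0.928 of the whole range of the 4 libraries, above the 95% critical value of Dixon's ratio for 4 samples. For single members, FUBP1-D was that far above the others in 23 of 44. In the proliferating state GFP was that far below the other 3 libraries in 4 of 44 members, Aurka, Cenpa, Spc25 and Tpx2. The same counts were not made over all rows tested, so neither has a background share beside it. Chance puts about 1 in 20 groups beyond this limit, the members are not independent of each other, and the 4 libraries of a state carry different labels.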

How the results depend on the processing

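The count of 44 members lower in the differentiating state stayed at 44 with other pseudocounts, filters, scalings, without the trend, with group means and with each library left out, and was 42 without 7 and FUBP1-D. The count within the NT libraries, 18, was 32 with a pseudocount of 0.1, 35 with a filter of 5 FPKM and 34 after quantile normalization. It was 0 with a pseudocount of 5, without a filter, and without 7 and FUBP1-D (an alternative chosen after seeing the data), and leaving out 1 library gave 0 to 44. The cause was not tested. The count of members more than 1 log2 unit above both NT libraries in FUBP1-D, 26, was 7 with a pseudocount of 5. The median difference of FUBP1-D from the NT mean was 2.37 and 0.63 with pseudocounts of 0.1 and 5, and 1.37 to 1.56 with 1 NT library left out. The median member FPKM in FUBP1-D as a percent of FUBP1, 9.13%, was 8.43% after median-of-ratios rescaling and 10.7% as a ratio of FPKM + 1. The Ndc80 CIC label difference of 0.72 was -0.15 without the proliferating CIC library and 1.585 without CIC-D. No member passed for either label or its change with state under any alternative that could be fitted. The change with state could not be fitted without a FUBP1 or CIC library of the label concerned. With the library pair as a replicate block (chosen after seeing the data) the count of members lower in the differentiating state was 44, both over 4 pairs (3 residual degrees of freedom) and over the 3 that share a name, and that within the NT libraries was 44 (1 residual degree of freedom). The block changed no other call of members. The FUBP1 and CIC label differences lie between pairs, so they have no blocked value. Depth is unknown, so no counting interval can be given for values near 0.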
